A study of Mus musculus with 50 samples.

Results

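The genes described here are Art2a (ENSMUSG00000092517) and Art2b (ENSMUSG00000030651), the mouse paralogs that encode the T cell ADP-ribosyltransferase ART2. They were taken by gene name, and are 2 of the 56600 genes in the table of estimated counts. Both passed the filter on low counts, which left 18387 genes. The pair was selected on its measured expression in these libraries, with the contrast used not given, so its own levels and differences are given as a description, without a test. The data came from 50 poly(A) RNA sequencing libraries of whole mouse lymph nodes, in 10 groups of 5, from 2 diets and 5 nodes. The nodes drained the duodenum, jejunum, ileum or colon, or were inguinal nodes, which drain skin. All mice were labelled C57B6 and were examined at postnatal day 56. Their C57BL/6J mothers had eaten either a diet lacking vitamin A (deficient) or a matched diet that held vitamin A at 20 IU per g (sufficient) from 3 weeks before mating, and pups of the second and the third litter were used. All deficient libraries were from female mice, while among the sufficient libraries of each node numbers 1 and 2 were female and numbers 3, 4 and 5 male. Because the diet began with the mothers, litter and mother cannot be told apart from the diet. The labels do not tie nodes to individual mice, so the tests of other genes measure the spread between libraries. These tests and their standard errors treat the libraries as independent. Within a diet, libraries with the same number were more alike (median r 0.38 and 0.28, sufficient and deficient, against -0.09 and -0.10 for different numbers), so they may not be. With the number as a random effect in limma-voom, 1842 instead of 3526 genes passed with diet, averaged over the nodes.

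ART2 is an enzyme anchored by a lipid to the outer face of mouse T cells. It uses NAD outside the cell to attach ADP-ribose to arginines of surface proteins. One substrate is the ATP-gated channel P2X7, which opens when it is modified in this way, and on naive and regulatory T cells this can end in shedding of L-selectin and in cell death. The ectoenzyme CD38 degrades the same NAD and so limits the reaction. Vitamin A is the source of retinoic acid, a ligand of nuclear receptors that dendritic and stromal cells of gut-draining nodes produce and that imprints gut homing on T cells.

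The sequences show how the paralogs differ. In the reference used here (GENCODE M21, build GRCm38), Art2a is annotated as a polymorphic pseudogene and Art2b as a protein-coding gene. Both lie on the minus strand of chromosome 7, Art2a at 101552453 to 101560865 and Art2b at 101576970 to 101585600, and each transcript has 4 exons. Their coding sequences, 864 bases in Art2a and 861 in Art2b, were identical at 751 of 864 aligned positions (86.9%), with 110 mismatches and 3 gap positions. The Art2a coding sequence held a stop codon in frame at codon 161 of 288, in exon 3, after 55.6% of its length. At that place the substitution was C481T, with the Art2b base first and positions counted from the A of the start codon. The following stretches of exon 3 are shown because they hold this difference, with the codon in capitals, at chr7:101554823-101554873 in Art2a and chr7:101580184-101580234 in Art2b, read on the minus strand.
Art2a: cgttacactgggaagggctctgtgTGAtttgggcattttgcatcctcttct
Art2b: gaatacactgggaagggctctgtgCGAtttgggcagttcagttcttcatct

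Downstream of this stop, from codon 207 of Art2a, both genes carried the same 3 glutamate codons, the part of the active site motif that arginine-specific ADP-ribosyltransferases share. They are in capitals in the next pair, from chr7:101554679-101554735 in Art2a and chr7:101580040-101580096 in Art2b, shown because the reading frame of Art2a ends before it reaches them.
Art2a: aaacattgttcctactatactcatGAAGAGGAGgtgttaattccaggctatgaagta
Art2b: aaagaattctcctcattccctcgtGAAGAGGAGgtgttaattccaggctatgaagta

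The likeness of the paralogs bears on how reads could be split between them. Of the windows of 31 bases in the Art2a transcript, 245 of 1227 (20.0%) also occurred in Art2b, and 243 of the 2769 windows of the Art2b transcript (8.8%) occurred in Art2a. Reads from such stretches fit both genes. The summed level of the pair does not depend on that split and is given beside each gene. Counting every other gene, 300 windows of Art2b (10.8%) occurred elsewhere. The sum can still depend on reads shared outside the pair. The authors' index was not used here, and the shares hold for the 1257-base and 2819-base reference transcripts.

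Across the series, estimated counts totalled 5335369 to 8904722 per library, with a median of 7640371. In 10 deficient libraries the processed pseudogene Gm19220 took 1.03% to 1.70% of counts, against 5.37% to 9.83% in the other 40, and in 2 duodenal libraries (sufficient 5 and deficient 4) a list of 10 pancreatic genes took 19.4% and 17.6%. T cell genes were present in every library. Levels are given as CPM, which are counts scaled to a common library size and corrected by the TMM method, and on this scale 18 core T cell genes summed to 1922 to 3572 CPM on the sufficient and 2387 to 3204 CPM on the deficient diet.

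Art2b was the more abundant transcript of the pair. On the sufficient diet its levels in the 5 duodenal libraries were 69.6, 76.4, 56.4, 51.5 and 74.7 CPM (mean 65.7 ± 11.2, SD, n = 5), and in the 5 jejunal libraries 66.9, 64.8, 52.0, 49.4 and 67.5 CPM (60.1 ± 8.73). Ileal libraries held 60.9, 40.2, 40.3, 41.1 and 62.9 CPM (49.1 ± 11.7), and colonic libraries 48.3, 47.4, 41.8, 37.8 and 46.0 CPM (44.3 ± 4.38). Inguinal libraries held 27.8, 31.1, 13.7, 18.3 and 32.7 CPM (24.7 ± 8.32). The means were lower from node to node along the gut, from duodenum to colon, with ranges that overlapped between neighbouring gut-draining nodes, and all 5 inguinal libraries lay below all 20 gut-draining libraries.

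On the deficient diet Art2b was low in every node. Its levels were 7.53, 8.60, 9.12, 9.20 and 10.1 CPM in duodenal libraries (8.91 ± 0.932), 10.8, 10.04, 7.37, 13.2 and 13.2 CPM in jejunal libraries (10.9 ± 2.46) and 12.2, 7.63, 6.95, 11.7 and 6.55 CPM in ileal libraries (9.01 ± 2.72). Colonic libraries held 7.52, 10.9, 9.05, 7.201 and 8.10 CPM (8.56 ± 1.497), and inguinal libraries 6.15, 6.68, 2.77, 4.35 and 4.35 CPM (4.86 ± 1.57). No deficient library reached the lowest sufficient library of its node. The sufficient mean was 7.38, 5.50, 5.45, 5.17 and 5.09 times the deficient mean in duodenal, jejunal, ileal, colonic and inguinal nodes.

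Art2a, the copy with the early stop, followed the same pattern in the gut-draining nodes at a lower level. On the sufficient diet it measured 13.2, 16.9, 12.3, 14.9 and 13.7 CPM in duodenal libraries (14.2 ± 1.77), 12.6, 14.6, 11.8, 11.1 and 11.3 CPM in jejunal libraries (12.3 ± 1.43) and 12.5, 12.1, 9.54, 12.0 and 11.6 CPM in ileal libraries (11.5 ± 1.16). Colonic libraries held 9.91, 7.83, 8.06, 7.04 and 10.8 CPM (8.74 ± 1.58), and inguinal libraries 6.05, 5.80, 2.71, 3.49 and 4.69 CPM (4.55 ± 1.44). As for Art2b, the inguinal libraries lay below all 20 gut-draining ones.

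On the deficient diet Art2a was near the lower end of what these libraries can resolve, at 9.33 to 37.4 estimated counts per library. It measured 2.70, 1.72, 1.23, 1.69 and 3.09 CPM in duodenal libraries (2.09 ± 0.776), 2.23, 3.97, 2.14, 4.19 and 2.87 CPM in jejunal libraries (3.08 ± 0.957) and 2.74, 2.51, 1.44, 2.75 and 3.49 CPM in ileal libraries (2.59 ± 0.741). Colonic libraries held 2.46, 2.48, 1.60, 2.06 and 3.24 CPM (2.37 ± 0.606), and inguinal libraries 2.51, 2.77, 2.01, 1.34 and 4.03 CPM (2.53 ± 0.999). The diets did not overlap in the 4 gut-draining nodes, where the sufficient mean was 3.69 to 6.81 times the deficient mean. They did overlap in inguinal nodes, where the highest deficient library (4.03 CPM) stood above the lowest sufficient ones (2.71 CPM the lowest) and the ratio of means was 1.80.

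The sum of both genes does not depend on how reads were split between them. On the sufficient diet the sum averaged 79.9 ± 11.9, 72.4 ± 9.48, 60.6 ± 12.2, 53.0 ± 5.55 and 29.3 ± 9.57 CPM from duodenal to inguinal nodes, and the ranges of neighbours in this order overlapped except between colonic (44.9 to 58.2 CPM) and inguinal nodes (16.4 to 37.4 CPM). On the deficient diet the sum averaged 10.99 ± 1.24, 14.01 ± 3.05, 11.6 ± 2.93, 10.9 ± 1.58 and 7.39 ± 2.04 CPM. There the order was jejunal, ileal, duodenal, colonic and inguinal, and the ranges of all neighbours in it overlapped.

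**Figure D1:**
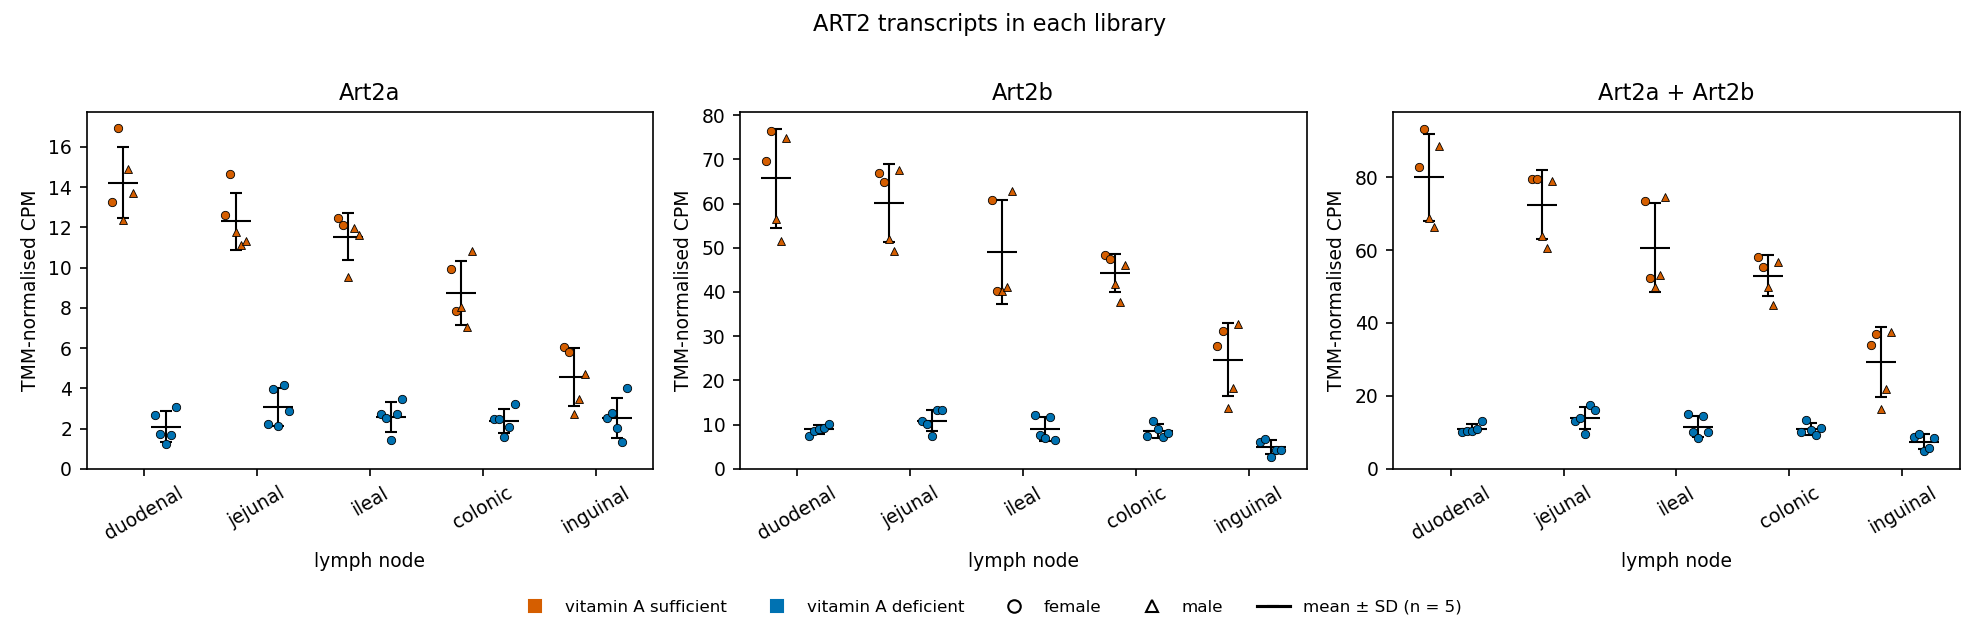
TMM-normalised CPM of Art2a, Art2b and their sum (y axes, each from 0) in each of 50 libraries, by lymph node (x axis), diet (colour) and sex (circle female, triangle male). Bars give the mean ± SD of 5 libraries. The sums in deficient nodes lie between 4.78 and 17.4 CPM and those in sufficient nodes between 16.4 and 93.3 CPM, with no overlap within a node.

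Whether ART2 transcripts differ with dietary vitamin A was read from 1 model over all 50 libraries with a term for sex. The log2 fold change of the sum, deficient minus sufficient, was -3.00 ± 0.19 (SE) in duodenal, -2.51 ± 0.19 in jejunal, -2.53 ± 0.19 in ileal, -2.42 ± 0.19 in colonic and -2.12 ± 0.20 in inguinal nodes, each from 5 libraries a diet. Averaged over the nodes it was -2.52 ± 0.10 for the sum (5.72-fold lower), -2.64 ± 0.11 for Art2b (6.23-fold lower) and -2.07 ± 0.13 for Art2a (4.19-fold lower). Over all other tested genes the median was 0.00, and 280 of them (1.52%) had a log2 fold change of -1 or lower. For Art2b and the sum, the deficient libraries lay wholly below the sufficient ones in all 5 nodes, and for Art2a in 4. Of all tested genes this held for 2.95% in duodenal, 2.71% in jejunal, 3.08% in ileal, 1.90% in colonic and 0.974% in inguinal nodes. These shares are set beside the pair as a background only, because the choice of the genes may have used this contrast.

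**Figure D2:**
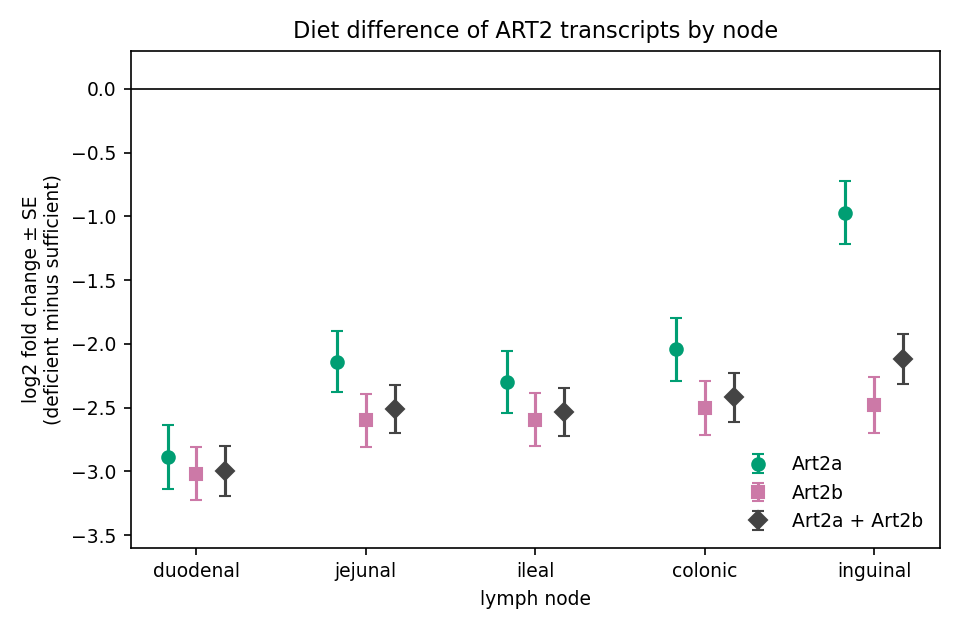
Log2 fold change of Art2a, Art2b and their sum, deficient minus sufficient (y axis), in each lymph node (x axis), with points for the fitted value and bars for its standard error. All values lie below 0. Art2a is at -0.97 in inguinal nodes and between -2.89 and -2.04 in gut-draining nodes, while Art2b is between -3.02 and -2.48 in all 5.

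The paralogs parted in the inguinal node. The fitted diet difference there was -0.97 ± 0.25 for Art2a and -2.48 ± 0.22 for Art2b. Accordingly the Art2a share of the summed counts was 12.5% to 23.1% (median 17.0%) over the 25 sufficient libraries and 11.9% to 48.1% (median 23.5%) over the 25 deficient ones. In deficient inguinal libraries it was 29.0%, 29.3%, 42.1%, 23.5% and 48.1% (34.4% ± 10.2), against 12.5% to 17.8% in sufficient inguinal libraries, with no overlap. Compared per length of transcript, Art2b stood at 8.77 ± 2.95 CPM per kb and Art2a at 3.62 ± 1.15 CPM per kb in sufficient inguinal nodes, but at 1.72 ± 0.557 and 2.01 ± 0.794 CPM per kb in deficient inguinal nodes. The means of the genes in deficient inguinal nodes lay within either SD of each other. Art2a rested there on 12.0 to 37.4 estimated counts per library. Its share was highest in numbers 3 and 5 (42.1% and 48.1%), which both held little Gm19220, as did number 2 (29.3%). In the other 9 groups the mean of Art2b was the higher one, for instance 23.3 ± 3.97 against 11.3 ± 1.41 CPM per kb in sufficient duodenal nodes. Leaving out the 10 libraries with little Gm19220 moved the Art2a difference in inguinal nodes to -1.39.

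In whole nodes, fewer T cells and less RNA per T cell cannot be told apart from a single transcript. T cell genes were therefore set beside ART2. On the deficient diet 8 of 18 core T cell genes rose, averaged over the nodes, and 0 fell, with a median log2 fold change of 0.15. Of all tested genes 10.7% rose and 8.45% fell in this comparison (edgeR's quasi-likelihood test, Benjamini-Hochberg adjusted p below 0.05). The members with the smallest p were the surface glycoprotein gene Thy1 (0.36 ± 0.08, edgeR adjusted p = 4.1e-04), the receptor-associated adaptor Trat1 (0.53 ± 0.11, adjusted p = 7.4e-04), the CD3 chain Cd3e (0.25 ± 0.07, adjusted p = 0.00537) and the receptor constant region Trac (0.22 ± 0.06, adjusted p = 0.00604). The rise was uneven between nodes. From duodenal to inguinal nodes, 1, 1, 11, 0 and 0 of the 18 core genes rose and 0, 0, 0, 0 and 2 fell. Their median log2 fold changes were 0.17, 0.19, 0.36, 0.10 and -0.16. Per 1000 CPM of these core genes, ART2 transcripts averaged 28.4, 29.1, 27.5, 19.4 and 8.91 CPM from duodenal to inguinal nodes on the sufficient diet and 3.69, 4.88, 4.13, 3.83 and 2.69 CPM on the deficient diet. The sufficient level was then 7.69, 5.95, 6.65, 5.07 and 3.31 times the deficient level, without overlap in any node. The core genes themselves summed to means of 2838, 2520, 2199, 2769 and 3249 CPM on the sufficient and 2991, 2859, 2820, 2860 and 2787 CPM on the deficient diet, so that the deficient mean was the lower one in inguinal nodes only. In those nodes the costimulatory receptor gene Cd28, one of the core genes, fell (-0.52 ± 0.10, edgeR adjusted p = 0.0026).

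**Figure D3:**
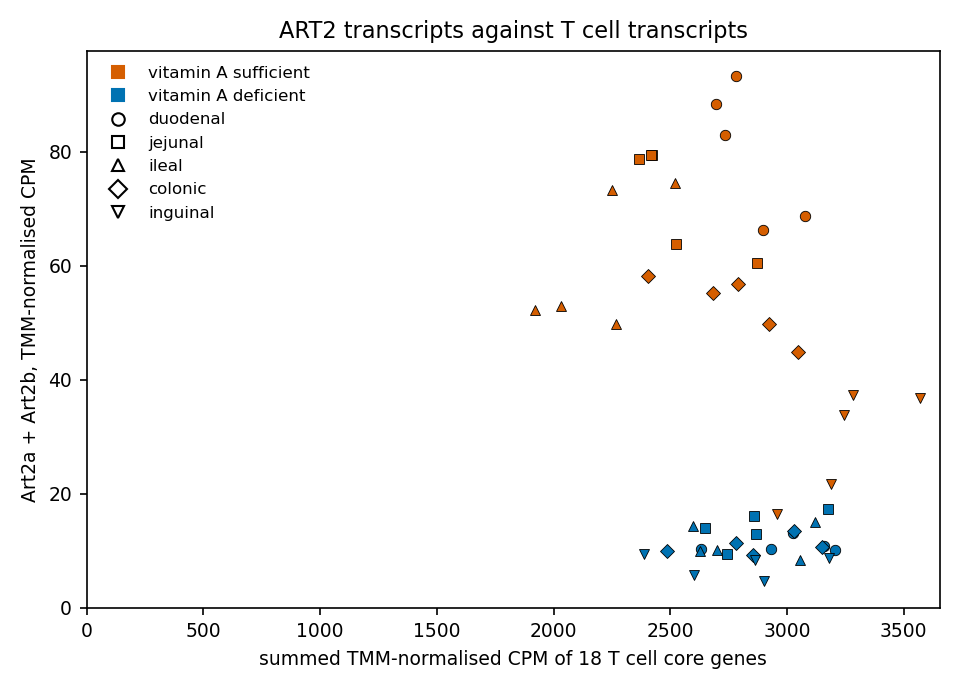
Summed CPM of Art2a and Art2b (y axis) against the summed CPM of 18 core T cell genes (x axis) in 50 libraries, with colour for the diet and marker shape for the node. Deficient libraries lie along the bottom at 4.78 to 17.4 CPM of ART2 and at 2387 to 3204 CPM of T cell transcripts, a span that lies inside the 1922 to 3572 CPM of the sufficient libraries.

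Sex and the libraries that stand apart were checked in the same values. Among sufficient libraries the fitted difference of the sum, male minus female, was -0.24 ± 0.11. Females alone gave sufficient means of 88.1, 79.5, 62.8, 56.7 and 35.4 CPM (n = 2 in each node), which were 8.01, 5.67, 5.42, 5.19 and 4.79 times the deficient means, all from females. In the 10 deficient libraries with little Gm19220 the sum ranged from 4.78 to 13.4 CPM, and in the other 15 from 5.69 to 17.4 CPM. Without those 10 the mean diet difference of the sum was -2.51, and without the 2 libraries rich in pancreatic transcripts it was -2.52.

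The second axis of the study was the region drained. On the sufficient diet the sum averaged 66.5 CPM over the 20 gut-draining and 29.3 CPM over the 5 inguinal libraries, 2.27 times as high, and all 20 gut-draining libraries lay above the highest inguinal library (37.4 CPM). A full separation of this kind was seen in 1.02% of tested genes. The fitted log2 difference was 1.17 ± 0.14 for the sum, 1.13 ± 0.16 for Art2b and 1.35 ± 0.19 for Art2a. On the deficient diet it was 0.68 ± 0.16 for the sum and 0.94 ± 0.18 for Art2b, with 18 and 19 of 20 gut-draining libraries above the highest inguinal one. For Art2a it was -0.02 ± 0.19, with means of 2.53 CPM in both regions, and 0.49 without the libraries with little Gm19220. The gap between the diets in this regional difference was -1.37 ± 0.26 for Art2a and -0.20 ± 0.23 for Art2b, given without a test.

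Core T cell genes were compared between the same regions. On the sufficient diet 0 of 18 were higher and 13 lower in the gut-draining nodes than in the inguinal node (median log2 difference -0.34), while 9.69% of all tested genes were higher and 7.22% lower. On the deficient diet 0 were higher and 0 lower, against 3.71% and 2.00% of all tested genes. Markers of other cells also differed between the regions on the sufficient diet. Of 12 B cell genes 0 were higher and 11 lower in the gut-draining nodes (median -0.34, Bank1 -0.43 ± 0.07, edgeR adjusted p = 5.2e-06). Of 10 macrophage genes 8 were higher and 1 lower (Marco 2.10 ± 0.17, adjusted p = 3.8e-13, and, lower, Timd4 -1.40 ± 0.10, adjusted p = 3.6e-15), and of 10 plasma cell genes 5 were higher and 0 lower (Igha 7.00 ± 0.52, adjusted p = 6.9e-14). All 10 pancreatic genes were higher (median 5.34). Without the 2 libraries rich in pancreatic transcripts the regional difference of the ART2 sum was 1.16 ± 0.15. The part of the other markers in the regional ART2 difference was not tested.

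The channel gated through ART2 was examined next. P2rx7, which encodes P2X7, fell on the deficient diet by 1.16 ± 0.11 on the log2 scale, averaged over the nodes (edgeR adjusted p = 3.2e-11), and passed in all 21 alternative analyses. In sufficient nodes it averaged 48.7 ± 9.78, 49.1 ± 9.97, 44.6 ± 7.18, 30.3 ± 4.03 and 21.2 ± 6.29 CPM from duodenal to inguinal, and in deficient nodes 16.4 ± 3.74, 20.3 ± 6.84, 19.0 ± 2.07, 17.5 ± 1.80 and 13.4 ± 2.49 CPM (n = 5 each). The diets did not overlap in the 4 gut-draining nodes and overlapped in the inguinal node. By node, the log2 fold change was -1.62 ± 0.20 in duodenal (edgeR adjusted p = 1.7e-07), -1.33 ± 0.20 in jejunal (adjusted p = 1.5e-05), -1.28 ± 0.20 in ileal (adjusted p = 2.3e-05) and -0.86 ± 0.20 in colonic nodes (adjusted p = 0.0144). The colonic call was lost in 3 of 22 alternatives (females alone, colonic libraries alone, and without the libraries with little Gm19220), with adjusted p up to 0.249. The inguinal value was -0.72 ± 0.21 (adjusted p = 0.0884). Of all tested genes, 3.94%, 1.80%, 2.96%, 0.946% and 0.299% fell in the 5 nodes in that order.

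P2rx7 was compared between regions as well. On the sufficient diet it was higher in gut-draining than in inguinal nodes by 1.00 ± 0.16 on the log2 scale (edgeR adjusted p = 6.6e-06), and on the deficient diet the difference was 0.45 ± 0.16 (adjusted p = 0.0881). The difference between these 2 values did not pass (-0.55 ± 0.22, edgeR adjusted p = 0.283), a test that 0.919% of all tested genes passed. Over the 50 libraries the log2 levels of P2rx7 and of the ART2 sum had a Pearson r of 0.881, which was 0.795 within the sufficient and 0.46 within the deficient libraries and 0.174 once the 10 group means were removed. The libraries share groups, so these coefficients describe the set only.

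Among the enzymes that handle NAD and nucleotides outside the cell, 2 of 8 fell on the deficient diet and 0 rose (median log2 fold change -0.13). They were Cd38, the NAD glycohydrolase (-0.52 ± 0.06, edgeR adjusted p = 4.8e-08), and Nt5e, the ectonucleotidase CD73 that forms adenosine (-0.73 ± 0.08, adjusted p = 1.5e-09). Both passed in all 21 alternatives. Over all tested genes 8.45% fell and 10.7% rose with diet. Cd38 averaged 83.8 ± 6.18 CPM in sufficient and 53.2 ± 8.41 CPM in deficient duodenal nodes, and 84.5 ± 9.40 against 62.1 ± 4.38 CPM in inguinal nodes. Nt5e averaged 42.0 ± 2.42 against 24.5 ± 2.66 CPM in duodenal and 19.3 ± 3.55 against 15.8 ± 3.39 CPM in inguinal nodes. By node, Cd38 passed in duodenal, jejunal and ileal nodes, but not in colonic (-0.39 ± 0.12, edgeR adjusted p = 0.0688) or inguinal nodes (-0.43 ± 0.12, adjusted p = 0.0762). Nt5e passed in the 4 gut-draining nodes, with values from -1.09 in ileal to -0.65 in colonic nodes, but not in inguinal nodes (-0.26 ± 0.15, edgeR adjusted p = 0.505), where 0 of 8 ectoenzymes passed. In inguinal nodes only 0.299% of all tested genes fell, and 0 of 8 is near that share. The CD38 relative Bst1 had a value of 0.22 ± 0.08 (adjusted p = 0.0515), the ATP-degrading Entpd1 one of 0.27 ± 0.11 (adjusted p = 0.0952) and the pyrophosphatase Enpp1 one of 0.08 ± 0.06 (adjusted p = 0.388). Cd38 did not pass between gut-draining and inguinal nodes on the sufficient diet (0.15 ± 0.09, edgeR adjusted p = 0.268).

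**Figure D4:**
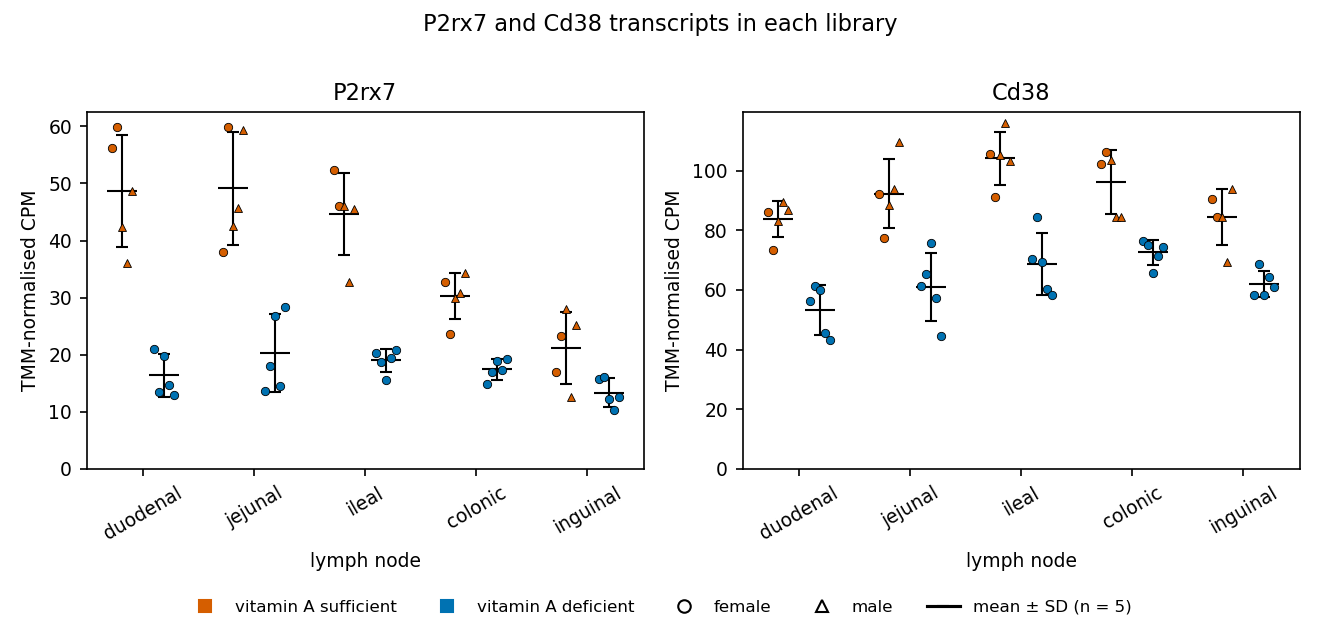
TMM-normalised CPM of P2rx7 and Cd38 (y axes, from 0) in each of 50 libraries, by lymph node (x axis), diet (colour) and sex (marker shape), with the mean ± SD of 5 libraries. P2rx7 means lie between 49.1 CPM in jejunal and 21.2 CPM in inguinal nodes on the sufficient diet, and between 13.4 and 20.3 CPM in deficient nodes. Cd38 means lie between 83.8 and 104 CPM in sufficient and between 53.2 and 72.6 CPM in deficient nodes.

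The other members of the P2X7 list had smaller values. Besides P2rx7, the related channel gene P2rx4 (-0.16 ± 0.06, edgeR adjusted p = 0.0337) and the sheddases Adam10 (-0.20 ± 0.06, adjusted p = 0.0157) and Adam17 (-0.14 ± 0.05, adjusted p = 0.0241), the latter of which cleaves L-selectin, fell on the deficient diet, so that 4 of 7 fell and 0 rose. The calls of these 3 were lost in 7, 6 and 7 of 21 alternatives, and without the sex term Adam17 was at 0.01. Over all tested genes 8.45% fell and 10.7% rose in the same comparison. The ATP-release channel Panx1 had a value of 0.07 ± 0.07 (adjusted p = 0.523).

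The remaining ecto-ADP-ribosyltransferases were not called with diet. Art3, Art4 and Art5 had log2 fold changes of -0.17 ± 0.22, 0.18 ± 0.08 and 0.30 ± 0.50 with diet (edgeR adjusted p = 0.653, 0.0843 and 0.736), so 0 of 3 were called. Over all tested genes 8.45% fell and 10.7% rose. Art1 was too low to be tested, with at most 0.616 CPM in any library. Between regions on the sufficient diet, Art3 (0.90 ± 0.31, adjusted p = 0.0361) and Art4 (0.32 ± 0.10, adjusted p = 0.0230) were higher in gut-draining nodes, and these calls were lost in 6 and 5 of 22 alternatives. In that comparison 9.69% of all tested genes were higher.

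Enzymes that remove ADP-ribose and that remake NAD gave 3 higher and 1 lower of 9 on the deficient diet. Adprh, the hydrolase that takes ADP-ribose off arginine, the residue that ART2 modifies, rose by 0.27 ± 0.05 on the log2 scale (edgeR adjusted p = 3.2e-04). Whether it acts on the surface proteins modified by ART2 was not measured. Adprs, which acts on serine, rose by 0.16 ± 0.05 (adjusted p = 0.0251) and the macrodomain hydrolase Macrod1 by 0.29 ± 0.10 (adjusted p = 0.0419), while Macrod2 fell by 0.52 ± 0.19 (adjusted p = 0.0424). Of these, Adprh kept its call in 19 of 21 alternatives and Adprs, Macrod1 and Macrod2 in 12, 11 and 14. The salvage enzyme Nampt was at -0.06 ± 0.08 (adjusted p = 0.686). Of the known surface proteins that ART2 modifies, 2 of 7 rose and 0 fell. They were Itgal, the alpha chain of LFA-1 (0.18 ± 0.06, adjusted p = 0.0198), and the costimulatory receptor Cd27 (0.27 ± 0.07, adjusted p = 0.00865). The co-receptor chain Cd8b1 (0.04 ± 0.07, adjusted p = 0.773) and the leukosialin gene Spn (0.06 ± 0.06, adjusted p = 0.533) did not pass. Of all tested genes 10.7% rose and 8.45% fell with diet. Over all 5 lists around ART2 (3, 8, 7, 9 and 7 genes tested), 5 genes rose and 7 fell. These counts were 2 and 4 without the sufficient libraries numbered 2, and 4 and 4 without those numbered 1 or without the deficient libraries numbered 4. Without the deficient libraries numbered 2 they were 3 and 7, and without a filter on low counts 3 and 3.

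**Figure D5:**
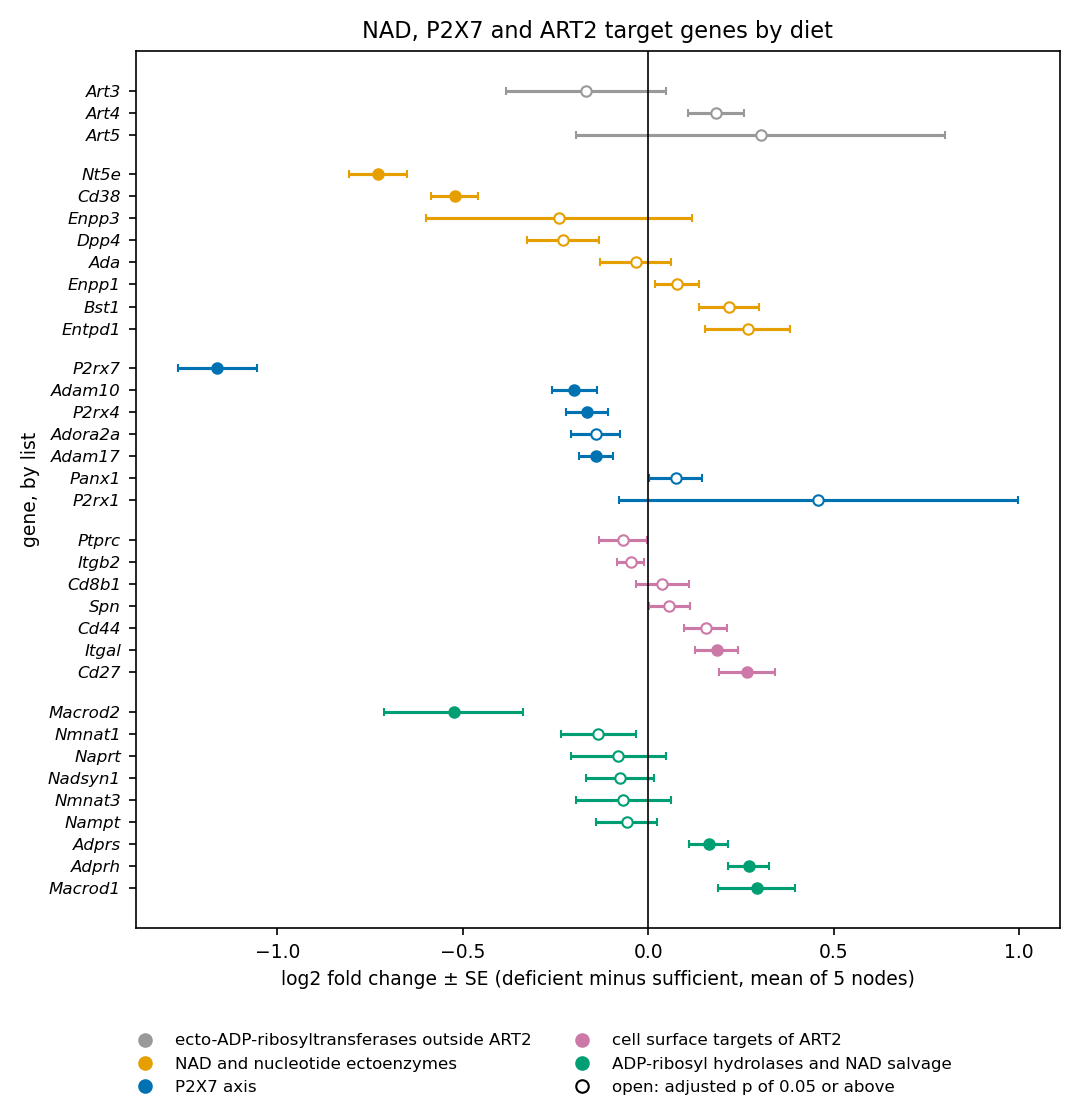
Log2 fold change, deficient minus sufficient, averaged over 5 nodes (x axis, with standard error) of the tested genes of 5 lists around ART2 (y axis, coloured by list). Filled points have an edgeR adjusted p below 0.05. Of the called genes, P2rx7 at -1.16 and Nt5e at -0.73 lie lowest. Cd38 and Macrod2 are both at -0.52, with standard errors of 0.06 and 0.19, and the others lie between -0.20 and 0.29.

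Between regions on the sufficient diet the same lists gave 1 higher (Nt5e, 0.81 ± 0.11, edgeR adjusted p = 5.4e-07) and 1 lower (Bst1, -0.31 ± 0.10, adjusted p = 0.0340) of 8 ectoenzymes, and 2 higher of 7 genes of the P2X7 list. The 2 were P2rx7 and P2rx4 (0.22 ± 0.08, adjusted p = 0.0461, lost in 12 of 22 alternatives). Of the hydrolase and NAD list 2 of 9 were higher, Macrod2 (1.07 ± 0.27, adjusted p = 0.0035) and the nicotinate-using Naprt (0.84 ± 0.18, adjusted p = 6.8e-04). Of the ART2 targets 0 were higher and 5 of 7 lower in gut-draining nodes, led by Spn (-0.45 ± 0.07, adjusted p = 9.5e-06) and Cd27 (-0.51 ± 0.10, adjusted p = 1.1e-04). Over all tested genes 9.69% were higher and 7.22% lower. The median of the ART2 targets was -0.29. Core T cell genes (13 of 18 lower, median -0.34) and B cell genes (11 of 12 lower, median -0.34) were lower there too, so the lower values were not particular to ART2 targets.

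Lists of T cell subsets were read for the cells that could carry ART2. With diet, 0 of 6 CD4 and CD8 lineage genes rose or fell (Cd4 0.14 ± 0.06, edgeR adjusted p = 0.0864, and Cd8a 0.10 ± 0.07, adjusted p = 0.298). Of 13 naive T cell genes 5 rose and 3 fell on the deficient diet (median 0.14). The interleukin 7 receptor Il7r (0.62 ± 0.08, adjusted p = 2.6e-07) and the transcription factors Tcf7 (0.41 ± 0.08, adjusted p = 1.3e-04) and Klf2 (0.36 ± 0.07, adjusted p = 1.3e-04) rose, whereas Lef1 fell (-0.34 ± 0.07, adjusted p = 3.7e-04). Of 11 regulatory T cell genes 6 rose and 2 fell (median 0.22), with Capg (0.62 ± 0.04, adjusted p = 6.0e-16) and the interleukin 2 receptor chain Il2ra (0.45 ± 0.07, adjusted p = 1.2e-05) higher and the folate receptor relative Izumo1r (-0.64 ± 0.07, adjusted p = 1.7e-09) and Gpr83 (-0.65 ± 0.09, adjusted p = 3.0e-07) lower. The summed level of these 11 genes ranged from 282 to 433 CPM on the sufficient and from 348 to 543 CPM on the deficient diet. Of 14 effector and memory genes 7 rose and 2 fell (median 0.20), among them the integrin chain Itgae (0.80 ± 0.08, adjusted p = 4.9e-10), perforin (Prf1, 0.80 ± 0.08, adjusted p = 5.9e-10), Eomes (0.89 ± 0.10, adjusted p = 6.9e-09) and, downward, Itga1 (-0.38 ± 0.04, adjusted p = 9.4e-09). Of 5 gamma delta T cell genes 1 rose, Trdc (0.43 ± 0.11, adjusted p = 0.00411). Over the core, lineage, naive, regulatory and effector lists (18, 6, 13, 11 and 14 genes tested) 26 genes rose and 7 fell. Without the sufficient libraries numbered 2 these counts were 15 and 4. Of all tested genes 10.7% rose and 8.45% fell with diet. The part of these subsets in the ART2 difference was not tested.

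Markers of the other cells in a node were compared between the diets too. Of all tested genes 10.7% rose and 8.45% fell, and the macrophage and stromal counts lay near these shares. Of 12 B cell genes 6 rose and 1 fell (Cd79a 0.46 ± 0.08, edgeR adjusted p = 4.4e-05), of 10 plasma cell genes 6 rose and 0 fell (Mzb1 0.75 ± 0.10, adjusted p = 6.4e-07), of 10 macrophage genes 2 rose and 2 fell (Timd4 0.54 ± 0.08, adjusted p = 2.5e-06, and Mrc1 -0.52 ± 0.10, adjusted p = 8.5e-05), and of 10 stromal genes 1 rose and 1 fell (Prox1 -0.72 ± 0.09, adjusted p = 1.2e-07). Of 10 pancreatic genes 0 passed. Plasma cell genes summed to 1911 to 7780 CPM on the sufficient and 2031 to 9062 CPM on the deficient diet, and macrophage genes to 1004 to 4474 and 1016 to 3294 CPM. Their part in the ART2 difference was not tested.

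Genes that respond to or handle retinoic acid were also compared between the diets, in a list chosen with earlier results of these data known. Of 13 tested genes 10 fell and 2 rose on the deficient diet (median -1.02), led by Aldh1a2, which makes retinoic acid (-3.09 ± 0.18, edgeR adjusted p = 1.2e-17), and Lrat, which esterifies retinol (-2.75 ± 0.16, adjusted p = 1.4e-17). Cyp26b1, which degrades retinoic acid, fell as well (-2.79 ± 0.21, edgeR adjusted p = 8.5e-14). Over all tested genes the shares were 8.45% lower and 10.7% higher. Aldh1a1, a paralog that also makes retinoic acid, rose (0.94 ± 0.21, edgeR adjusted p = 0.00107). In inguinal nodes alone 11 of the 13 genes did not pass, among them Aldh1a2 (-0.70 ± 0.41, edgeR adjusted p = 0.529) and Lrat (0.55 ± 0.32, adjusted p = 0.532), while Aldh1a1 rose there by 1.69 ± 0.40 (adjusted p = 0.0231). In those nodes 0.299% of all tested genes fell. The diet difference in gut-draining nodes minus that in the inguinal node passed the interaction test for Aldh1a2 (-2.99 ± 0.45, edgeR adjusted p = 8.5e-05) and Lrat (-4.12 ± 0.34, adjusted p = 4.5e-11). That test was passed by 0.919% of all tested genes.

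Likeness to ART2 was measured for every tested gene as the Pearson r of log2 CPM over 50 libraries. The 5 genes most like the sum were Gm57204 (r = 0.923), the lymphocyte GTPase genes Gimap7 (0.919) and Gimap4 (0.915), Aldh1a2 (0.905) and Adgre5 (0.902). Adgre5 encodes the adhesion receptor CD97. For Art2b the same 5 genes led, and for Art2a they were Aldh1a2 (0.910), Lrat (0.908), Gm57204 (0.881), the deltex ligase gene Dtx4 (0.878) and Gimap7 (0.871). Gimap7 averaged 45.7 CPM on the sufficient and 15.3 CPM on the deficient diet, and Gm57204 12.2 and 4.00 CPM. With the 10 group means removed, r with the sum was 0.0307 for Gm57204, -0.228 for Gimap7, 0.322 for Gimap4, 0.0405 for Aldh1a2 and 0.461 for Adgre5. Art2a and Art2b had r = 0.926 with each other over all libraries, 0.924 within the 25 sufficient and 0.213 within the 25 deficient libraries, where Art2a rests on few counts.

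The genes around the pair on the chromosome were measured as well. In the order of genes in the RefSeq table, the 3 tested genes on the side of the lower coordinates, Stard10 (0.17 ± 0.14, edgeR adjusted p = 0.435), Arap1 (0.02 ± 0.05, adjusted p = 0.815) and Pde2a (0.23 ± 0.25, adjusted p = 0.580), and the 3 on the other side, Clpb (0.08 ± 0.08, adjusted p = 0.528), Inppl1 (-0.04 ± 0.07, adjusted p = 0.728) and Gm10602 (0.26 ± 0.19, adjusted p = 0.388), did not pass. Pde2a lay 39.6 kb from the pair and Clpb 78.0 kb. The same 6 did not pass between regions on the sufficient diet either, with adjusted p from 0.0794 (Stard10) to 0.914 (Arap1). GENCODE lists 2 more tested genes at the locus, named here after their values were seen. Gm45837, which overlaps Pde2a, did not pass with diet (-0.28 ± 0.30, edgeR adjusted p = 0.580). Gm7027, a processed pseudogene that lies between Art2a and Art2b on the same strand, fell on the deficient diet by 2.27 ± 0.33 on the log2 scale (edgeR adjusted p = 1.9e-06), at a median of only 0.741 CPM over all libraries. Its regional difference on the sufficient diet was 1.09 ± 0.44 (adjusted p = 0.0837). The transcripts of Art2a and Art2b shared 0 windows of 31 bases with that of Gm7027.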

How the data were processed

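RNA was extracted with TRIzol and sequenced after poly(A) selection, per the labels' protocols. The authors deposited 1 table of estimated counts per gene, and the submitters' processing notes name kallisto, edgeR and limma. Those notes name both mm10 and GRCm39, and no version or role is stated for any of these. No library was left out, and columns were matched to samples by name.

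Estimated counts were rounded, filtered with filterByExpr, scaled by TMM and fitted with edgeR 4.0.16 (R 4.3.3, limma 3.58.1), with 1 mean per diet and node and a sex term. Standard errors come from the F statistic. P-values were adjusted by Benjamini-Hochberg over 18387 genes, with a threshold of 0.05. The fit was checked on simulated counts. The sum was fitted with 1 row in place of both. DESeq2 1.42.0, limma-voom and other alternatives are given at the end.

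The members and all 17 gene lists were chosen with earlier results of these data known. Of 10 gamma delta genes 6 were in the table. Named genes are the members of the 5 lists around ART2 that a role sentence needs, up to 4 per other list with the smallest adjusted p with diet, the 5 most like each member and the sum, and 3 neighbours a side. Of the genes this rule names, 2 are not reported here. Bank1, Marco, Igha, Cd28, Aldh1a1, Gm45837 and Gm7027 fall outside it and were chosen after their values were seen. Sequences and positions come from GENCODE M21, matched on Ensembl identifiers, and were aligned with Biopython 1.88 in Python 3.11.15. Figures were drawn with matplotlib 3.10.9.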

Additional observations from a re-analysis of the deposited data

Results flagged for a closer look

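In deficient duodenal nodes 1 library (number 5) stood apart in the sum of Art2a and Art2b, at 13.2 CPM, while the other 4 lay between 10.2 and 10.9 CPM. Such a check of the gap against the range marks about 1 in 20 groups by chance.

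For 3 genes of the lists around ART2 the difference between gut-draining and inguinal nodes changed with the diet, by the interaction term of the model (0.919% of tested genes passed it in either direction). It was -0.589 ± 0.15 on the log2 scale for Nt5e (edgeR adjusted p = 0.0442), since gut-draining nodes were higher by 0.81 on the sufficient diet and by 0.22 on the deficient diet. For Cd8b1 it was 0.539 ± 0.13 (edgeR adjusted p = 0.0331), from -0.42 to 0.12, and for Cd27 0.566 ± 0.14 (edgeR adjusted p = 0.0309), from -0.51 to 0.06. These calls were lost in 14, 8 and 7 of 21 alternatives, with adjusted p up to 0.626, 0.801 and 0.809, in each case also among females alone and without the libraries with little Gm19220.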

How the results depend on the processing

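The diet difference of the ART2 sum kept its sign in all alternatives, between -3.12 and -1.91 in the nodes and between -2.64 and -2.38 on average. Scaled to T cell core counts it was -2.92 in ileal nodes, and the difference between regions on the sufficient diet was 1.53. That scaling shifts the median of all genes to -0.407 and 0.325 in these comparisons and to -0.13 in the mean over nodes. Without the libraries with little Gm19220 it was -2.60 in colonic nodes.

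Of the lists around ART2, 5 genes rose and 7 fell. The counts were 3 and 3 without a filter, and leaving out each replicate number gave 2 to 6 and 4 to 7. With the replicate number as a fixed block 3 fell, and with it as a random block 1 rose and 3 fell. The numbers were not taken to pair the samples. The labels do not tie them to mice, and 39 of 50 same-number pairs in each diet, not all, correlated above 0.1. Pairs with different numbers did so in 67 and 62 of 200 cases, with median r of -0.09 and -0.10 against 0.38 and 0.28 for equal numbers, and on the sufficient diet sex follows the number. Libraries of the same number may therefore not be independent, although the main fit treats them so. The mean diet difference of the sum was -2.44 with the fixed block and -2.52 with the random block. Of the T cell lists, 26 genes rose and 7 fell, with 15 to 26 and 4 to 7 when a number was left out and 12 fallen without the sex term. Without that term Adam17 was at 0.01, Pax5 at -0.05 and Ccl19 at -0.09. Over all genes 3526 passed with diet, 6052 without the sex term, 1842 with the random block and 1759 without sufficient replicate 2. Between regions 3108 passed on the sufficient diet and 1135 among females, and on the deficient diet 1050 passed and 447 without the libraries with little Gm19220. The causes of these shifts were not tested. Low counts limit Art2a on the deficient diet.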
